A study of Mus musculus with 6 samples.

Results

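The genes described here are the heat shock proteins and their co-chaperones, 70 of the 22071 mouse genes that had array probe sets of their own. They were chosen by symbol: symbols beginning Hspa, Hspb, Hsp90a, Dnaja, Dnajb or Dnajc, together with Hspd1, Hspe1, Hsph1, Hsf1 and Hsf2. The rule used no measured value, but it was set with earlier results of these data known. Hspa5, Dnajb9 and Dnajc3, which serve the endoplasmic reticulum, were not part of the choice. Of the 70, 63 had at least 3 probe sets bright enough to be kept and were tested, among 16524 genes tested in all. The other 7, Hspa1a, Hspb3, Hspb9, Dnajb7, Dnajb8, Dnajc5b and Dnajc5g, are accounted for separately. A symbol prefix is not a function: Hspb11 is known as the ciliary transport protein IFT25, Hspbp1 as an HSP70 nucleotide exchange factor, and Hspbap1 only as a protein that binds Hspb1.

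The experiment compared 3 arrays of mouse primary cortical neurons given a lentivirus with a short hairpin RNA (shRNA) against Cugbp1 with 3 arrays of neurons given the same kind of virus with a control shRNA. Cugbp1 is the older name of Celf1, an RNA-binding protein that acts in splicing, mRNA decay and translation. Cells of both groups came from the cortex of C57BL/6 embryos at embryonic day 15 with the meninges removed, and were treated with AraC, which removes dividing cells. Virus was added on day 5 for 4 h, cultures were kept 6 more days, and RNA was taken on day 11, with 100 ng per exon array. Both groups therefore carried lentivirus and an shRNA, and no uninfected culture was analysed here. The labels do not say whether replicates were separate cultures, so p-values measure only the spread between these arrays. For replicates 2 and 3, in either group, the treatment field names an shRNA against Tdp-43. The design text speaks of motor neurons where the title and sample labels speak of cortical neurons. What this shRNA may do beyond lowering Celf1 and the effect of lowering Celf1 cannot be told apart.

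Heat shock proteins are the cell's main protein-folding machinery. HSP70 proteins bind exposed stretches of unfolded proteins in a cycle driven by ATP, J proteins (the Dnaj families) deliver clients and start ATP hydrolysis, and HSP110 proteins release the nucleotide so that the cycle can restart. HSP90 takes clients that are nearly folded, small heat shock proteins hold unfolded ones, and the chaperonin Hspd1 with its lid Hspe1 folds proteins inside mitochondria. The heat shock factor Hsf1 binds heat shock elements, arrays of alternating GAA and TTC triplets, and switches on the inducible members during stress. Neurons are known to induce the inducible HSP70 gene Hspa1a weakly, and they depend on particular J proteins, among them Dnajc5 at synaptic vesicles and Dnajc6 in the uncoating of clathrin.

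Because Hsf1 acts through these triplets, the promoters of the members were searched for them. RefSeq promoter windows of assembly GRCm38.p6, reaching from 250 bases before to 50 bases after an annotated start, matched 55 of the 70 members. Windows were not matched for Hsf1, Hsp90aa1, Hsp90ab1, Hspa8, Hspa9, Hspa13, Hspb2, Dnajc2, Dnajc5, Dnajc5b, Dnajc11, Dnajc12, Dnajc18, Dnajc22 and Dnajc30. The element searched was 3 triplets, GAANNTTCNNGAA or its reverse complement TTCNNGAANNTTC, so that both strands were covered. It was found in 4 of the 55 members, 7.27%, and in 0.662% of the 27025 genes with a window. The 250 bases before the start are printed 5′ to 3′, with the element in capitals, for Hspe1 and Dnajb6, which hold it, and for Hspa4l, Dnajb14 and Hspb6, the members called below, which do not.
Hspe1: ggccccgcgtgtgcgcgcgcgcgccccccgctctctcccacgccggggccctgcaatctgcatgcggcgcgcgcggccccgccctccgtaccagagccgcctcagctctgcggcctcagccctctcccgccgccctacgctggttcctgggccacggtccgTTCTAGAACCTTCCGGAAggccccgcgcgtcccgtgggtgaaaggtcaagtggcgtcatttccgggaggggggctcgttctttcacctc
Dnajb6: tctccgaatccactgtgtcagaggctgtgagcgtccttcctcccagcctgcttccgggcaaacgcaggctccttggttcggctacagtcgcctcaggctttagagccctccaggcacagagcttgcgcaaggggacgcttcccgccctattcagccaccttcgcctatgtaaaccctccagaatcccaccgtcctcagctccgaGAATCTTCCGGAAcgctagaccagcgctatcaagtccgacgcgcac
Hspa4l: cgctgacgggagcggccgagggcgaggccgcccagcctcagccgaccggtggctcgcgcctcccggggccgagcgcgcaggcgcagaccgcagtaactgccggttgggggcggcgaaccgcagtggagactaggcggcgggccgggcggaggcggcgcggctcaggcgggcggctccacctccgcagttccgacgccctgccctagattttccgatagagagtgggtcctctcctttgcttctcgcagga
Dnajb14: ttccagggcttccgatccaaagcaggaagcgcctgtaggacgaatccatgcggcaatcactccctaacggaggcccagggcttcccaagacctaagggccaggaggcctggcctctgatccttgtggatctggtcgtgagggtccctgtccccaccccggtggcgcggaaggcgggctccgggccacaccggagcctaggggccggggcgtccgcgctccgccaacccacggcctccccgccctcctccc
Hspb6: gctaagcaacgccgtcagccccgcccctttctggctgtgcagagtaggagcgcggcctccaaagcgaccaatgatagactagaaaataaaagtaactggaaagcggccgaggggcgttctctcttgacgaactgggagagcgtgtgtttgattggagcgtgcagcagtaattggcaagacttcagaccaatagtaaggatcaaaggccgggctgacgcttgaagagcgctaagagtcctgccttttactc

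Hspe1 lies on the plus strand at chr1:55087898-55088147, and its capitals hold 2 overlapping matches that begin at -89 and -84 from the start. Hspd1, which encodes the partner subunit, is annotated on the minus strand from a start so close by that its window holds the same letters, at -144 and -139. Dnajb6 lies on the plus strand at chr5:29735648-29735897 with its match at -46. The fourth member, Hsph1, holds a match after its 2 annotated starts, at 15 and 36. Hspa4l lies at chr3:40745363-40745612, Dnajb14 at chr3:137867425-137867674 and Hspb6 at chr7:30552290-30552539, all on the plus strand. The window of a further Hspb6 start and that of Hspa1a held no match in this spelling either. A match is a description of letters, not of binding.

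The values are log2 expression values as the authors deposited them, 1 for each exon probe set and array, and a gene value is their median polish over the probe sets kept. Array medians lay between 5.74 and 5.78. Celf1 itself fell, from 10.85, 10.79 and 10.75 in control replicates 1, 2 and 3 to 9.59, 9.40 and 9.33 in the knockdown. That left 39.1% of the control level (log2 difference -1.36, SE 0.099, limma adjusted p = 0.0124). Among the neuron markers, control means were 12.45 for Map2, 12.21 for Tubb3 and 11.33 for Slc17a7, and Tbr1 was lowest at 8.85. The motor neuron markers Mnx1, Slc5a7, Chat, Isl1, Lhx3 and Prph had control means of 6.17, 6.47, 6.82, 6.95, 7.26 and 8.06. The median over probe sets, which are not gene values, was 5.73. Across the marker lists, the mean level per array spanned 11.22 to 11.29 in control and 11.24 to 11.27 in knockdown for 13 neuron markers, and 9.85 to 9.90 and 9.74 to 9.92 for 10 astrocyte markers. It spanned 9.20 to 9.61 and 9.22 to 9.51 for 9 oligodendrocyte lineage markers, and 6.74 to 7.02 and 6.62 to 6.98 for 10 microglia markers. For 9 endothelial and mural markers it spanned 6.95 to 7.31 and 6.94 to 7.17, for 7 fibroblast markers 8.36 to 8.65 and 8.21 to 8.49, and for 6 motor neuron markers 6.79 to 7.11 and 6.78 to 7.04. Of all markers tested, limma called Gad2 (0.77), Pdgfrb (-0.80) and Thbs1 (-0.72). In cultures of mixed cells, fewer cells of a type and less RNA per cell cannot be told apart.

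Knockdown of Cugbp1 left most heat shock proteins and co-chaperones within the spread of the arrays, and 3 of the 63 tested were called, that is, passed limma's test at an adjusted p under 0.05. The HSP110 gene Hspa4l and the small heat shock protein gene Hspb6 rose, and Dnajb14, a J protein of the endoplasmic reticulum membrane, fell. These 3 are 4.76% of the members, beside 3.94% of all genes tested, so the count is near the background. Over all genes 1.10% were called higher and 2.84% lower. The median log2 difference of the members, knockdown minus control, was 0.052, beside -0.015 for all genes, and 39 members had the higher mean in the knockdown and 24 in the control. Without control replicate 3 the median was 0.0013, with 32 members higher. The groups did not overlap in 19 members, 30.16%, against 25.2% of all genes. An unadjusted p under 0.05 was reached by 16 members, 25.4%, against 18.8% of all genes.

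Arrays of the same replicate number deviated together, and a model with the replicate number as a block called many more genes. It called 20 members, 11 higher and 9 lower, which is 31.75% beside 23.2% of all genes (9.31% higher and 13.8% lower). The 3 members named above were among the 20. The median size of the difference, without sign, was 0.15 over the members and 0.13 over all genes. The plot of differences by class shows each member. In 11 members, 17.46%, the difference exceeded 0.3 in either direction, beside 16.68% of all genes.

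**Figure D1:**
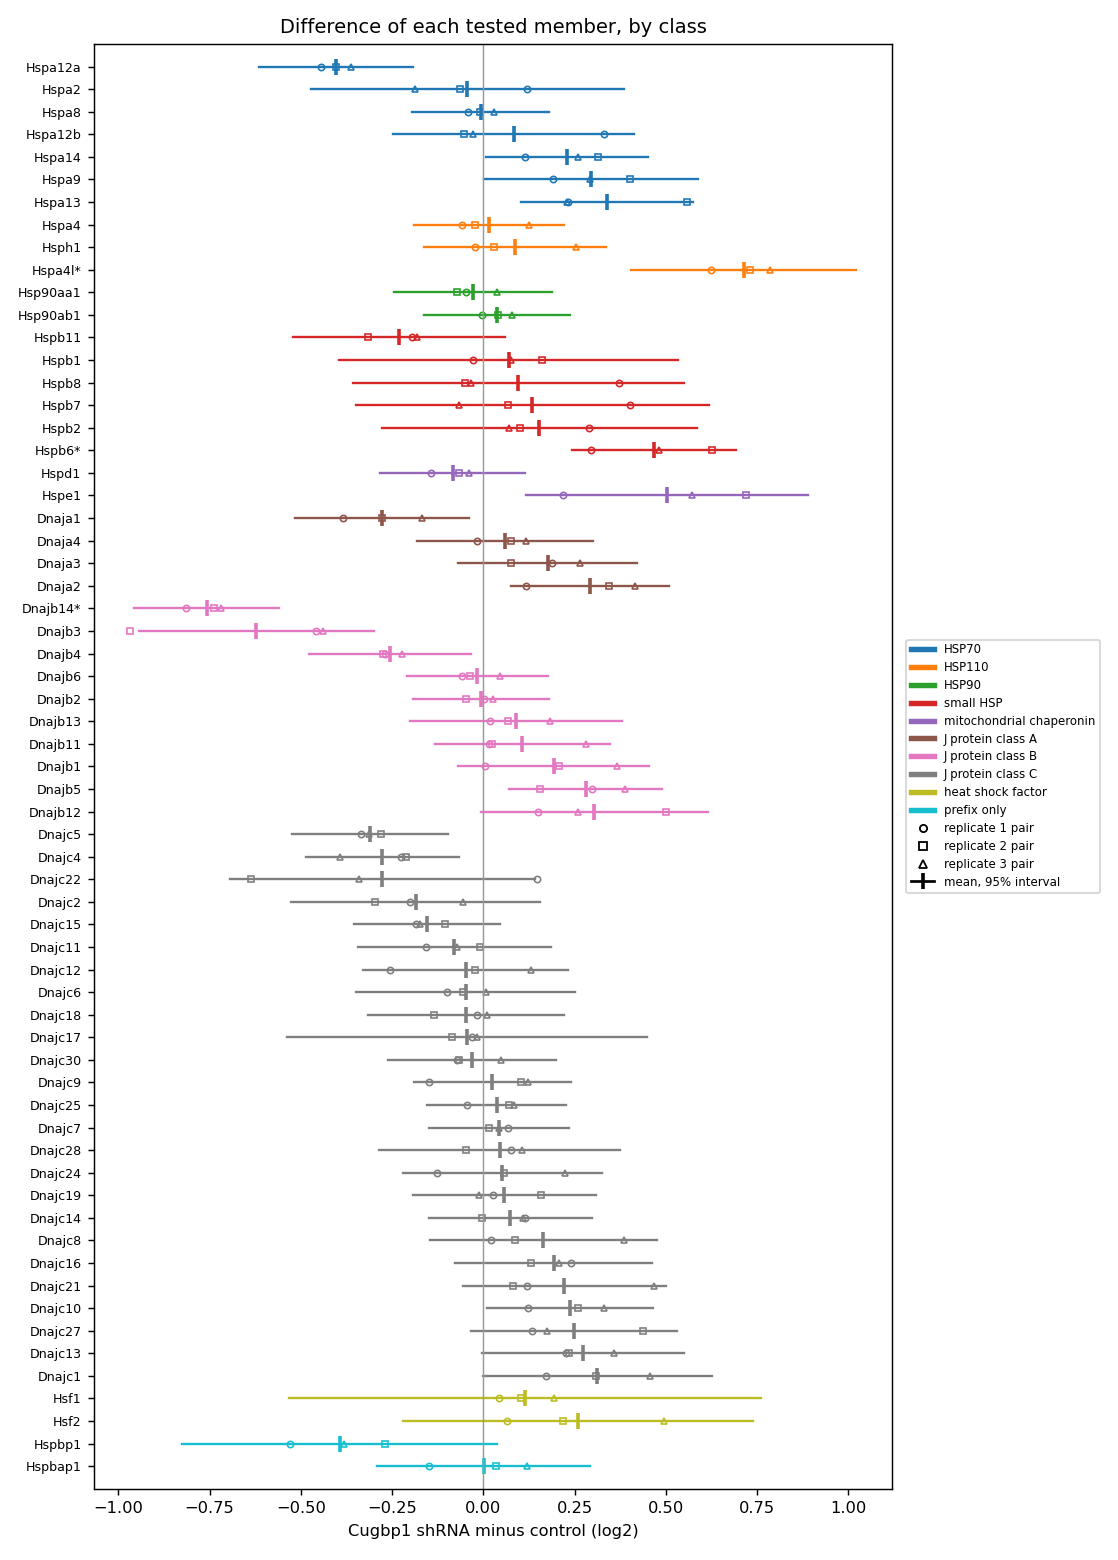
Log2 difference, Cugbp1 shRNA minus control, of the 63 tested members by class; vertical ticks are means, horizontal lines 95% intervals from limma, circles, squares and triangles the pairs of replicates 1, 2 and 3, and stars mark the 3 members called. Most means lie between -0.4 and 0.4, with Hspa4l at 0.71 and Dnajb14 at -0.76 as the extremes.

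Among the HSP110 proteins, which act as exchange factors for HSP70, only Hspa4l was called. Its gene value was 8.84, 9.12 and 8.97 in control replicates 1, 2 and 3 and 9.46, 9.85 and 9.76 in the knockdown. Every knockdown array lay above every control array. The mean rose from 8.98 ± 0.14 to 9.69 ± 0.21 (SD, n = 3 each), a 1.64-fold change (log2 difference 0.71, SE 0.13, limma adjusted p = 0.0349). Of its 51 kept probe sets 49 were higher in the knockdown, 38 of them at an unadjusted p under 0.05, so nearly all probe sets of the gene pointed the same way. Its paralogs stood near 0. Hspa4, with 27 probe sets, differed by 0.016 (95% interval -0.19 to 0.22), and Hsph1, the stress-inducible HSP110, by 0.087 (-0.16 to 0.34), with overlapping groups in both. Whether Hspa4l differed from its paralogs was not tested.

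The HSP70 class held 7 tested genes, and limma called 0 without the block (4 at an unadjusted p under 0.05) and 3 with it. Over all genes the block called 23.2%. Hspa8, the constitutive HSP70 known as HSC70, had the steadiest values: 13.54, 13.51 and 13.46 in control and 13.50, 13.50 and 13.49 in knockdown replicates 1, 2 and 3. The groups overlapped, and the difference was -0.0070 (95% interval -0.19 to 0.18). Hspa12a, a divergent HSP70 of brain, gave 9.98, 10.11 and 10.01 in control and 9.54, 9.70 and 9.65 in knockdown. All its knockdown arrays lay below all control arrays, at a difference of -0.40 (SE 0.091, limma adjusted p = 0.0569, and 0.00687 with the replicate block). Its call thus depends on the model. Hspa13, a short HSP70 of the microsomal fraction, differed by 0.34 (adjusted p = 0.118, block 0.0342 in limma) and Hspa9, the HSP70 of the mitochondrial matrix, by 0.30 (0.261, block 0.0251). Groups did not overlap for Hspa13 and did for Hspa9. The ribosome-associated Hspa14 stood at 0.23, and Hspa2 and Hspa12b, whose control SDs of 0.34 and 0.26 were wide, at -0.044 and 0.084.

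Hspa1a, the textbook stress-inducible HSP70, could not be measured as well as the others, because only 2 of its own probe sets were bright enough. It is a near-identical copy of Hspa1b, and 6 further probe sets are annotated to both Hspa1l and Hspa1a. The 2 own probe sets gave 9.50, 9.58 and 9.31 in control replicates 1, 2 and 3 and 8.68, 8.74 and 8.45 in the knockdown. In this joint value the groups were well apart, with all knockdown arrays lower. The 2 probe sets differed in size: 5344547 stood at -1.17 without overlap, and 5447104 at -0.51 with overlapping groups. Entered in the whole fit as a gene after the values were seen, the 2 together differed by -0.84 (SE 0.12, limma adjusted p = 0.0186, and 0.0019 with the replicate block). A planned limma fit that admits genes with 1 probe set called the gene too (adjusted p = 0.038). That fit used the same 2 probe sets, so it is no separate evidence. When the 5 kept probe sets shared with Hspa1l were added, the difference shrank to -0.24 (adjusted p = 0.207), and without a brightness filter it was -0.40 (adjusted p = 0.338). The lower value was thus seen in the 2 own probe sets and not across all those annotated to the gene.

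**Figure D2:**
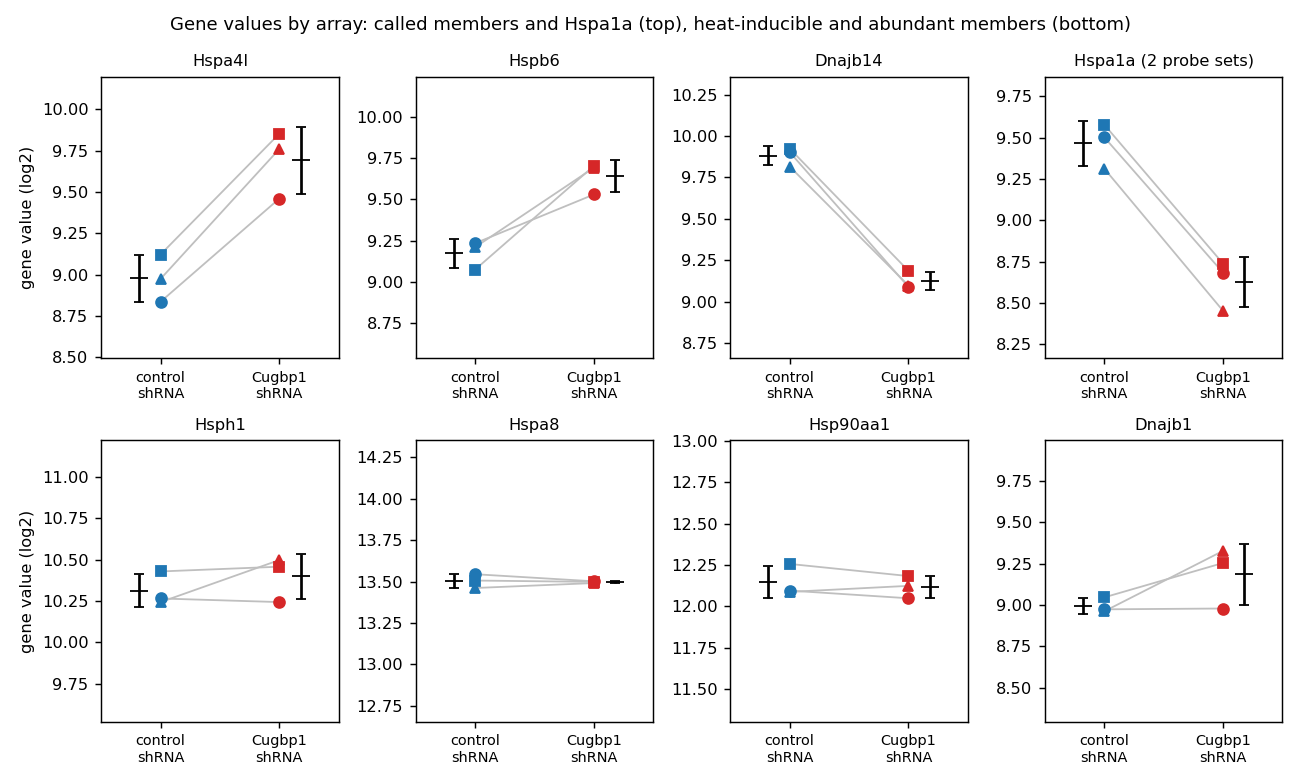
Gene value (log2) on each array for the 3 called members and Hspa1a (top) and for Hsph1, Hspa8, Hsp90aa1 and Dnajb1 (bottom); circles, squares and triangles are replicates 1, 2 and 3 joined by pair, and the bars beside them are mean and SD of 3 arrays. The groups are apart in the top panels, with Hspa4l and Hspb6 higher and Dnajb14 and Hspa1a lower in the knockdown, and they overlap in the bottom panels.

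The cytosolic HSP90 genes were level. Hsp90aa1, the inducible form, gave 12.10, 12.26 and 12.09 in control and 12.05, 12.18 and 12.12 in knockdown replicates 1, 2 and 3, a difference of -0.028 (95% interval -0.24 to 0.19). Hsp90ab1, the constitutive form, differed by 0.038 (-0.16 to 0.24). Both intervals end within 0.25 of no difference. Among 15 tested co-chaperones of HSP90, limma called 0, with 3 at an unadjusted p under 0.05. The block called 3 higher and 1 lower, beside 9.31% and 13.8% of all genes. The kinase adaptor Cdc37 stood at 0.38 (block adjusted p = 0.0118) and the ATPase activator Ahsa1 at 0.28 (0.0225). Fkbp5, the immunophilin that glucocorticoids induce, stood at -0.44 (adjusted p = 0.0683, block 0.0124), and Stip1, the adaptor between HSP70 and HSP90, at 0.060.

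Of the 6 tested genes classed by symbol as small heat shock proteins, the ciliary Hspb11 among them, Hspb6 rose. It encodes HSP20, known from muscle and also found in brain. Its values were 9.23, 9.07 and 9.21 in control and 9.53, 9.70 and 9.69 in knockdown replicates 1, 2 and 3, with no overlap. The mean went from 9.17 ± 0.09 to 9.64 ± 0.10 (SD, n = 3 each), a 1.38-fold rise (log2 difference 0.47, SE 0.096, limma adjusted p = 0.044). The value rests on 6 probe sets, of which 5 were higher and 1 lower by 0.45, and the gene overlaps Lin37 in the RefSeq annotation. The call was lost in a fit without the brightness filter (adjusted p = 0.0514), with means of probe sets (0.144) and when genes with 1 probe set were admitted (0.0755). The smooth muscle markers Acta2 and Tagln differed by -0.066 and -0.050, the mural cell marker Pdgfrb fell by 0.80, and the mural markers Cspg4 and Rgs5 stood at 0.23 and 0.056. Of the 9 endothelial and mural markers tested 4 had the higher mean in the knockdown and 5 in the control; their part in the Hspb6 value was not tested.

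The other genes of the small heat shock protein class moved with the replicate number more than with the knockdown. Hspb1, the stress-inducible HSP25, gave 6.84, 7.07 and 7.39 in control and 6.81, 7.23 and 7.47 in knockdown replicates 1, 2 and 3. Replicate 1 was lowest and replicate 3 highest in both groups, which left a difference of 0.069 (95% interval -0.40 to 0.53). Hspb2, Hspb7 and Hspb8, the last the partner of Bag3 in selective autophagy, differed by 0.15, 0.13 and 0.096 with control SDs of 0.33, 0.41 and 0.39. Hspb11, the ciliary protein, stood at -0.23 with all 8 of its probe sets lower (limma adjusted p = 0.395, block 0.0413).

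The mean differences of the mitochondrial chaperonin subunits had opposite signs, that of Hspd1 with an interval including 0. Their promoter windows share the element shown above, and its part in either value was not tested. Hspe1, the lid, gave 9.18, 9.30 and 9.03 in control and 9.40, 10.02 and 9.60 in knockdown replicates 1, 2 and 3. All knockdown arrays were above all controls, with replicate 2 farthest (log2 difference 0.50, SE 0.17, limma adjusted p = 0.153, block 0.0194). Hspd1, the barrel, gave 11.31, 11.18 and 11.20 in control and 11.17, 11.11 and 11.16 in knockdown, each knockdown array slightly lower (-0.084, 95% interval -0.28 to 0.12, adjusted p = 0.712). The value of Hspe1 minus that of Hspd1 went from -2.06 ± 0.16 to -1.47 ± 0.35 (SD, n = 3 each). That difference of 0.59, chosen after its values were seen, had an exact two-sided permutation p of 0.1, the smallest that 3 arrays against 3 allow over 20 splits. Hspe1 rests on 4 probe sets against 17 for Hspd1. RefSeq names 7 copies of Hspe1 and 5 of Hspd1 elsewhere in the genome, and whether the probes separate them was not tested. Of 11 mitochondrial chaperones and proteases outside the rule, limma called 0 (3 at an unadjusted p under 0.05). Limma with the block called 3 higher and 2 lower, beside 9.31% and 13.8% of all genes. Among the higher were the exchange factor Grpel1 (0.32, adjusted p = 0.0316) and the protease Clpp (0.26, 0.0373).

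**Figure D3:**
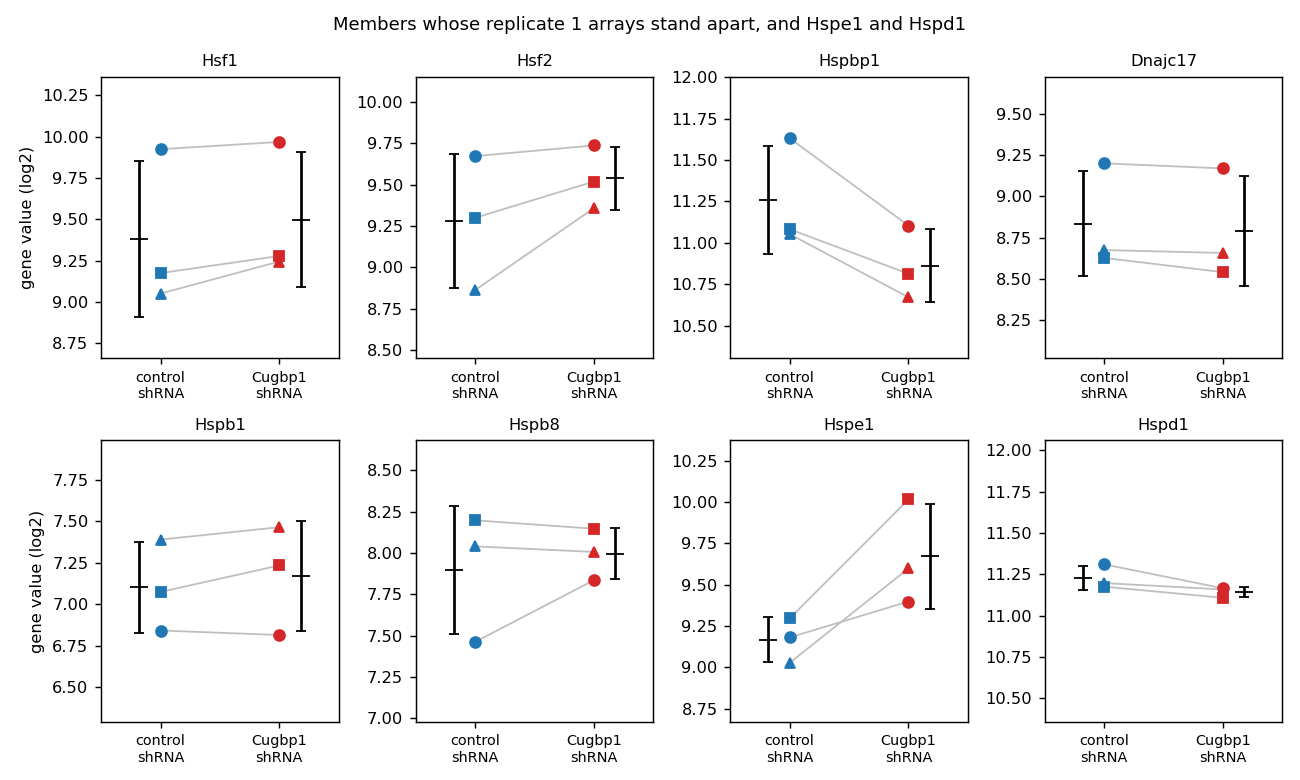
Gene value (log2) on each array for Hsf1, Hsf2, Hspbp1, Dnajc17, Hspb1, Hspb8, Hspe1 and Hspd1; circles, squares and triangles are replicates 1, 2 and 3 joined by pair, with mean and SD of 3 arrays. In the first 4 panels both replicate 1 arrays lie above the other 4, and in Hspb1 and Hspb8 they lie below; the groups are apart in Hspe1, higher in the knockdown, and in Hspd1, slightly lower.

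J proteins were the largest class, with 39 tested, 22 with the higher mean in the knockdown and 17 in the control. Only Dnajb14 was called. Its values were 9.90, 9.92 and 9.82 in control and 9.09, 9.19 and 9.10 in knockdown replicates 1, 2 and 3. The arrays of each group lay close together and far from the other group. The mean fell from 9.88 ± 0.06 to 9.12 ± 0.05 (SD, n = 3 each), leaving 59.2% of the control level (log2 difference -0.76, SE 0.085, limma adjusted p = 0.0176). All 12 kept probe sets were lower, 11 at an unadjusted p under 0.05, by between 0.49 and 1.45 on the log2 scale. RefSeq annotates a long noncoding RNA and a pseudogene across the same stretch. Dnajb12, its paralog in the endoplasmic reticulum membrane, which works with HSC70 in the removal of misfolded membrane proteins, stood on the other side at 0.30 (adjusted p = 0.279, block 0.044).

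The remaining class B genes spanned -0.62 to 0.28. Dnajb3, a J protein of testis, had the lowest difference but only 3 probe sets, 2 lower and 1 higher. Its gene value was 6.28, 6.34 and 6.06 in control and 5.82, 5.37 and 5.63 in knockdown replicates 1, 2 and 3. In that value the groups did not overlap, and the gene missed the threshold (limma adjusted p = 0.0558, block 0.0144). The higher probe set, 4486095, was bright, at 9.20, 9.64 and 9.68 in control and 9.47, 9.70 and 9.78 in knockdown. Dnajb4 and Dnajb5, close relatives of the classical HSP40, stood apart in direction at -0.26 (0.196, block 0.0244) and 0.28 (0.145, block 0.0323), without overlap in either. Dnajb1, the inducible HSP40 itself, gave 8.97, 9.05 and 8.96 in control and 8.98, 9.25 and 9.33 in knockdown. The replicate 1 arrays were nearly equal and the knockdown was higher in the other pairs, for a difference of 0.19 (95% interval -0.069 to 0.45, adjusted p = 0.434). Dnajb2 and Dnajb6, known for holding back polyglutamine aggregates in neurons, stood at -0.0063 (-0.19 to 0.18) and -0.016 (-0.21 to 0.18). Dnajb6, whose promoter holds the element, had 18 probe sets higher and 13 lower. Dnajb11 of the endoplasmic reticulum and Dnajb13 of cilia and sperm stood at 0.11 and 0.089.

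Class A holds the J proteins most like the bacterial one. Dnaja1 gave 11.05, 11.18 and 11.05 in control and 10.66, 10.90 and 10.88 in knockdown replicates 1, 2 and 3, all knockdown arrays lower and 27 of 28 probe sets lower (log2 difference -0.28, limma adjusted p = 0.195, block 0.0312). Dnaja2, a cytosolic partner of the same HSP70, gave 10.84, 10.68 and 10.64 in control and 10.96, 11.02 and 11.06 in knockdown. Its arrays were all higher and 12 of 13 probe sets were higher (0.29, adjusted p = 0.142, block 0.0399). Neither passed without the block. The mitochondrial Dnaja3 stood at 0.18 and Dnaja4 at 0.060, with overlapping groups.

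Class C, J proteins that share little beyond the J domain, had 25 tested genes between -0.31 and 0.31, of which 13 lay within 0.1 of no difference. Dnajc5, the cysteine string protein that guards synaptic vesicle fusion, gave 11.30, 11.42 and 11.37 in control and 10.96, 11.14 and 11.05 in knockdown replicates 1, 2 and 3. The groups did not overlap and 20 of 21 probe sets were lower, at 80.7% of the control level (log2 difference -0.31, SE 0.091, limma adjusted p = 0.116, block 0.0137). Its call appeared only with the block or with limma's trend and robust variances. Dnajc6, the neuronal auxilin that brings HSC70 to clathrin coats, differed by -0.049 (95% interval -0.35 to 0.25).

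With the block, which called 9.31% of all genes higher and 13.8% lower, limma called 3 further class C genes higher and 1 more lower. The higher ones were Dnajc1 of the endoplasmic reticulum membrane (0.31, adjusted p = 0.0293), Dnajc10, a disulfide reductase of the same compartment (0.24, 0.0472), and the endosomal Dnajc13 (0.27, 0.025). Dnajc13 had 54 of 56 probe sets higher. Dnajc4 stood at -0.28 with all 10 probe sets lower (0.0292). The partners of ribosome-associated Hspa14 and of the mitochondrial import motor, Dnajc2, Dnajc15 and Dnajc19, stood at -0.18, -0.15 and 0.058. The spliceosome-associated Dnajc8 and Dnajc17 stood at 0.16 and -0.045, Dnajc9, a histone chaperone, at 0.025, and Dnajc7, which links HSP70 with HSP90, at 0.043. The other 12 class C genes ranged from -0.28 for Dnajc22 to 0.25 for Dnajc27, and limma called 0 of them in either model.

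Both heat shock factors varied between the control replicates, with SDs of 0.47 for Hsf1 and 0.41 for Hsf2. Hsf1, the main stress regulator, gave 9.92, 9.17 and 9.05 in control and 9.97, 9.28 and 9.24 in knockdown replicates 1, 2 and 3. Both replicate 1 arrays stood far above the other 4, and within each pair the knockdown was slightly higher, for a difference of 0.11 (95% interval -0.53 to 0.76, limma adjusted p = 0.909). Hsf2, which acts in development and binds the same element, gave 9.67, 9.30 and 8.86 in control and 9.74, 9.52 and 9.36 in knockdown, a difference of 0.26 (-0.22 to 0.74). With the block the adjusted p was 0.224 for Hsf1 and 0.0913 for Hsf2. Hspbp1, the exchange factor, also stood highest in replicate 1, at 11.63, 11.08 and 11.05 in control and 11.10, 10.81 and 10.67 in knockdown. Its difference of -0.39 had an adjusted p of 0.316, and 0.0132 with the block. Hspbap1 stood at 0.0015.

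The step at replicate 1 ran through the whole table. In 24 of the 63 tested members both replicate 1 arrays lay above (11) or below (13) all 4 others, 38.1%, near the 40.09% of all genes. Hsf1, Hsf2, Hspbp1 and Dnajc17 were among those above, and Hspb1, Hspb2, Hspb7, Hspb8 and Hspa2 among those below. The same held for replicate 3 in 17.46% of members, beside 24.03% of all genes, and for replicate 2 in 11.11%, beside 10.5%. The treatment field also differs between replicate 1 and the others, and its part was not tested. With replicates 2 and 3 alone, the 3 called members were called again and Dnajb3 was added.

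The 3 calls were mostly lost when single arrays were left out, although replicates 2 and 3 alone gave them again. Without control replicate 1 only Dnajb14 remained called, as did 271 of all genes. Without knockdown replicate 1 a single gene of all 16524 was called, which was no member, and without any 1 of the other 4 arrays 0 were called, while between 9 and 17 members had an unadjusted p under 0.05 in these 5 fits, 14.29% to 26.98% of them, beside 12.15% to 16.7% of all genes. The highest adjusted p over these fits was 0.141 for Dnajb14, 0.216 for Hspa4l and 0.199 for Hspb6. Hspa4l also lost its call when genes with 1 probe set were admitted (0.062). The differences kept their sign in every one of 15 alternative fits, between -0.83 and -0.66 for Dnajb14, 0.58 and 0.80 for Hspa4l and 0.34 and 0.59 for Hspb6.

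Heat-inducible genes outside the choice were mostly a little higher in the knockdown. The list of 16 shares genes with others here: HSP90 co-chaperones, the endoplasmic reticulum chaperones Hspa5 and Hsp90b1, and the HSP70 adaptor Bag3. Of the 16, 14 were tested, and all 14 had the higher mean in the knockdown, beside 7686 of all 16524 genes. The list was chosen with earlier results of these data known. Its genes were measured on the same arrays and are not independent, so the count is only a description. The median difference of the 14 was 0.20, against -0.015 for all genes. The count was 14 too under median centring and quantile normalization, and 13 with means of probe sets or without control replicate 3. Limma called 1, Rgs2, a brake on G protein signalling (0.63, adjusted p = 0.0375), and with the block 6. Rgs2 gave 9.37, 9.64 and 9.56 in control and 9.96, 10.25 and 10.26 in knockdown replicates 1, 2 and 3, without overlap. The stress factor Atf3 stood at 0.68 (adjusted p = 0.132, block 0.0174), the heme oxygenase Hmox1 at 0.37 (0.53, block 0.0342) and the HSP90 helper Chordc1 at 0.31 (0.29, block 0.0162). Bag3 and Cryab, both classical targets of heat shock, stood at 0.14 and 0.13. The plot of heat-inducible genes also shows 7 members picked for it, among them Hspa8, the constitutive HSP70. Of these 7, Hspe1 stood at 0.50 and Dnajb1 at 0.19. Hsph1, Hspb1, Hspa8, Hsp90aa1 and Hspd1 stood between -0.084 and 0.087. The 2 own probe sets of Hspa1a were lower.

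**Figure D4:**
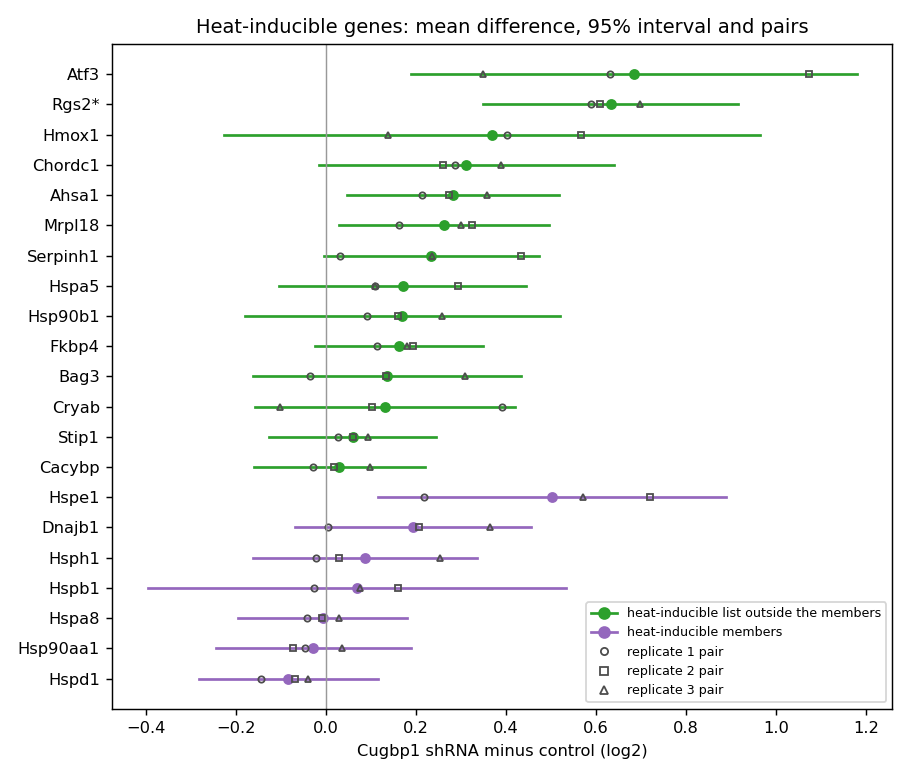
Log2 difference, Cugbp1 shRNA minus control, of 14 heat-inducible genes outside the members (green) and 7 members labelled heat-inducible (purple), although Hspa8 among them is constitutive. Large points and lines are means and 95% intervals from limma, small symbols the pairs of replicates 1, 2 and 3, and the star marks Rgs2, the one called. All 14 green means lie above 0, while the purple ones run from -0.084 for Hspd1 to 0.50 for Hspe1.

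Chaperones of other compartments, in lists also chosen with earlier results known, were described in the same way. Of 13 endoplasmic reticulum chaperones, Hspa5 and Hsp90b1 again among them, 11 had the higher mean, with a median of 0.17. Limma called Manf, a secreted protein of that compartment (0.51, adjusted p = 0.0419), but called 0 of the list under median centring (3 at an unadjusted p under 0.05). With the block 4 were called, all higher. Over all genes the block called 9.31% higher and 13.8% lower. Of the 14 HSP70 exchange factors and adaptors, Hspbp1 included, limma called 0 (1 at an unadjusted p under 0.05) and the block called Hspbp1 and Bag5 lower (-0.21, adjusted p = 0.0477). Of 14 subunits of the cytosolic chaperonin and of prefoldin limma called 0 (1 at an unadjusted p under 0.05), and the block called Pfdn4 higher (0.28, adjusted p = 0.0308) and Pfdn5 lower (-0.46, 0.0073).

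A gene value can hide a change in a single exon, so each probe set was also compared with the rest of its gene by limma's diffSplice. It called 3 of 1007 member probe sets, beside 201 of 244606 over all genes, 0.0822%. In Hspa12a probe set 5056081 gave 8.87, 8.58 and 8.86 in control and 9.56, 9.41 and 9.55 in knockdown replicates 1, 2 and 3. It went up while the gene value was lower, a relative difference of 1.04 (SE 0.20, adjusted p = 0.00366). Of the 20 kept probe sets of Hspa12a, 15 were lower and 5, this one included, were higher. In Hspa8 probe set 4932459 gave 7.50, 8.03 and 7.12 in control and 7.10, 7.28 and 6.20 in knockdown, with overlapping groups (relative difference -0.68, SE 0.11, adjusted p = 0.000271). In Dnajb12 probe set 4368029 gave 6.51, 6.45 and 5.87 in control and 5.53, 5.95 and 5.65 in knockdown, again overlapping (-0.89, SE 0.19, adjusted p = 0.0266).

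These calls rest on the variance that diffSplice shares among the probe sets of a gene. When each probe set minus its gene value was tested with its own variance, an analysis added after the data were seen, limma called 0 probe sets of the members and 0 of all genes. At an unadjusted p under 0.05 it found 34 of the members' probe sets, 3.38%, beside 4.28% of all. The Hspa8 call was lost without control replicate 2 (adjusted p = 0.704) or without knockdown replicate 3 (0.938). That of Dnajb12 was lost without control replicate 1 (0.187) or 2 (0.807) and without knockdown replicate 2 (0.105) or 3 (0.433), as well as without the brightness filter (0.107) and with replicates 2 and 3 alone (0.0685). For Hspa12a, whose groups did not overlap at this probe set, the relative difference was between 0.91 and 1.11 without any 1 array, and the call was lost without control replicate 2 (0.222) and without knockdown replicate 1 (0.0544), 2 (0.0509) or 3 (0.0601). Hspa12a overlaps Eno4 and noncoding RNAs in RefSeq, Hspa8 overlaps snoRNA genes and Dnajb12 overlaps a noncoding RNA. With the block, diffSplice called 27 member probe sets in 18 genes, beside 2.37% of all.

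**Figure D5:**
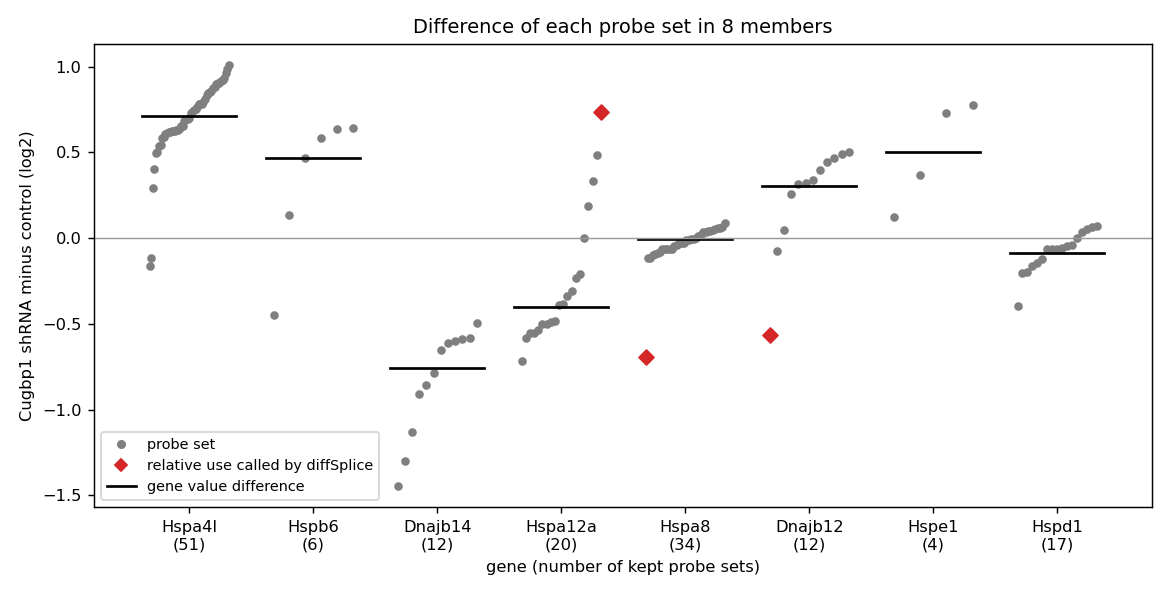
Log2 difference, Cugbp1 shRNA minus control, of every kept probe set (grey points, sorted within a gene) in 8 members, with the difference of the gene value as a black line and red diamonds for the probe sets called by diffSplice. Nearly all points of Hspa4l and all of Dnajb14 lie on one side of 0, while single red points in Hspa12a, Hspa8 and Dnajb12 lie away from the rest of their gene.

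The 6 remaining untested members had 0 to 2 kept probe sets. Hspb3, a small heat shock protein of muscle, had 2, one of which (5187405) gave 6.39, 6.06 and 6.29 in control and 7.24, 6.85 and 6.89 in knockdown replicates 1, 2 and 3. It was higher on every knockdown array, but limma called 0 of all 597778 single probe sets. Admitted with its 2 kept probe sets, Hspb3 stood at 0.44 (limma adjusted p = 0.173). Without the filter, which adds a dim further one, it stood at 0.75 (adjusted p = 0.041) and was called. In the fit that admits genes with 1 probe set, Hspb9, Dnajb8, Dnajc5b and Dnajc5g stood between -0.068 and 0.29 with adjusted p of 0.718 or more, and Dnajb7, a gene of testis, had no probe set above the filter.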

How the data were processed

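The deposited values were log2 RMA expression values, 1 per exon probe set and array, made by the authors in Affymetrix Expression Console on build mm9, per the submitters' processing notes. RMA equalizes array distributions, so a difference in total RNA would not show. At 5 percentiles the 6 columns differed by at most 0.0653, so they were used as deposited. Of 1195555 probe sets, 316997 carried a single gene in the platform annotation, 6571 several, and 871987 were unlisted. Symbols were updated through RefSeq (GRCm38.p6; 17988 of 22264 were current and 4213 updated; all 70 members were current).

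Probe sets with a mean of at least the overall median, 5.73, were kept (597778). Genes with at least 3 received a median polish value per array and were tested with limma 3.58.1 (R 4.3.3; lmFit, eBayes, two-sided, Benjamini-Hochberg over all 16524 genes, 95% intervals unadjusted), knockdown minus control, over 6 arrays with no further term. The filter used both groups together. Exons were tested with diffSplice on 244606 probe sets. The number of arrays limits the precision. Fits were checked on simulated data with independent arrays and, for diffSplice, a common variance within each gene. Deviations shared by arrays of the same replicate number were not simulated.

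Titles number replicates 2 and 3; the unnumbered array of a group was called replicate 1 by exclusion. Deviations from group means correlated between same-numbered arrays at 0.76, 0.50 and 0.71 across genes (0.76, 0.52 and 0.77 across the members), so a fit with the number as a block is given beside results it changes.

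The members, lists and alternatives were chosen with earlier results of these data known. Named are Celf1, every called member, up to 4 members of each class by p, 16 members or near copies by name, members with the called probe sets, and up to 4 called genes of each context list; the other genes named were chosen after their values were seen. Alternatives were other centring, quantile normalization, other filters, means for median polish, genes with 1 probe set, trend and robust variances, the block, replicates 2 and 3 alone and leaving out each array. Plots used matplotlib 3.10.9, pandas 2.3.3 and numpy 2.4.6 under Python 3.11.15. Protein sequences were not used here.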

Additional observations from a re-analysis of the deposited data

How the results depend on the processing

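The counts of 2 higher and 1 lower member, among 651 genes called, were the same under median centring (541 genes) and quantile normalization (661 genes), where the median difference of the members, 0.052 in the report, was 0.056 and 0.057. A filter at the 75th percentile gave 2 lower members among 1039 genes. The mean of probe sets gave 1 higher and 2 lower members. Genes with 1 probe set gave 0 higher and 2 lower among 260 genes, and trend and robust variances gave 3 lower among 1089 genes. With the replicate block, 11 members were higher and 9 lower among 3827 genes, and 27 member probe sets changed relative use. Replicates 2 and 3 alone gave 2 lower members and 6 probe sets. The splicing index with its own variance gave 0 member probe sets (34 at an unadjusted p under 0.05), and 0 with the replicate block (94). What moves these counts was not tested.

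Leaving out each array in turn gave 0 higher members in every case, between 0 and 1 lower, between 0 and 271 genes, a median of the members between 0.0013 and 0.0545, and between 0 and 6 member probe sets. With 1 array left out, a group has 2 arrays. Over 15 alternatives, 26 of 38 named members kept their sign and 12 did not; the largest of those 12 stood at 0.15 with all arrays, and none of the 3 called members was among them. Values close to the threshold, such as Hspb6, and members with few or dim probe sets, such as Dnajb3 and Hspa1a, are the least certain.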
